A study of Mus musculus with 2 samples.

Results

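The genes described here are 40 genes of mitosis, from the kinetochore and the spindle checkpoint to cytokinesis. They were chosen by name: each is a gene symbol on a fixed list, matched through its gene identifier to the annotation, and no measured value enters the rule. The list itself was chosen with earlier results of these data known. All 40 were found among the 43346 genes in the deposited tables, of which 21474 are annotated as protein-coding. By role, 5 belong to the spindle checkpoint, 11 to the kinetochore, 4 to the chromosomal passenger complex, 3 are spindle kinases or their activator, 5 belong to condensin, 5 act in anaphase and ubiquitin-driven exit, 5 in cytokinesis and 2 in chromosome structure.

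In mitosis the replicated chromosomes are compacted, attached to spindle microtubules and pulled apart, and the cell is then cleaved. The kinetochore is the protein assembly on each centromere that binds microtubules, and the spindle checkpoint holds the cell before anaphase until every kinetochore is attached. In the embryonic neural tube, progenitor cells divide at the inner, ventricular surface, while the neurons they give rise to leave the cell cycle and collect in the outer layers, so bulk tissue holds dividing and non-dividing cells together.

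RNA was sequenced from 2 pools of neural tube, the precursor of brain and spinal cord, dissected from embryos of the B6NCrl strain aged 11.5 days. Replicate 1 pooled 109 embryos and replicate 2 pooled 88, with males and females mixed in both. Both libraries belong to 1 group with no treatment or mutant allele, so no condition is compared, no p-value is given, and differences are set against the spread of the 2 pools. Levels are in TPM, a transcript abundance that divides reads by transcript length and library size and so allows genes to be compared.

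Total expected counts, the reads assigned to all entries, were 27638068 in replicate 1 and 29166901 in replicate 2, and spike-in RNAs took 5.72% and 5.02% of them. Markers of cell types were read beside the tissue label. All 12 neural progenitor markers and all 12 markers of postmitotic neurons lay at 1 TPM or more in both libraries, as did 59.9% of all protein-coding genes. Vim had 959 and 983 TPM and Tubb3 had 679 and 802 TPM. RNA of other cells was also present, since the embryonic globin Hbb-y stood at 6719 and 6729 TPM. All 10 erythroid, 10 mesoderm, 8 endothelial and 6 skeletal muscle markers reached 1 TPM in both, so this threshold does not tell neural tube from other tissue. Median levels were 45.9 TPM for neural progenitor markers and 220 TPM for postmitotic neuron markers. They were 824 TPM for erythroid, 68.7 TPM for skeletal muscle, 29.1 TPM for mesoderm and 24.9 TPM for endothelial markers. In such bulk tissue a smaller share of dividing cells and less RNA per dividing cell cannot be told apart.

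All 40 members were detected at 1 TPM or more in both libraries, against 59.9% of all protein-coding genes. All 40 also stood at 10 TPM or more in both, a level reached by 39.7% of protein-coding genes, and 15 of 40 stood at 100 TPM or more, against 6.89%. Their median level was 77.5 TPM, while that of the 12868 detected protein-coding genes was 19.9 TPM. Together they took 0.580% of the gene counts in replicate 1 and 0.571% in replicate 2.

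The highest member was Ube2c, which encodes the ubiquitin-conjugating enzyme that works with the anaphase-promoting complex, with 352 TPM in replicate 1 and 356 TPM in replicate 2; on GRCm38 it lies at chr2:164769898-164778822 on the plus strand. The lowest was Espl1, which encodes separase, the protease that cuts the cohesin ring, with 17.0 and 17.65 TPM, at chr15:102296266-102324357 on the plus strand. The members lie on 15 chromosomes. The means of these genes differed 20.4-fold. Within a gene the pools lay close together: the median coefficient of variation over the 40 members was 2.75%, and the highest was 9.56%, for Smc2. Counts per member ran between 586 and 17081, with the fewest for Pttg1 and the most for Top2a. Ordered by mean, 22 of the 39 neighbouring pairs were apart in both libraries and 17 overlapped in range. Overlaps ran unbroken between Cdca8 and Aurkb, so neighbours among those 7 genes, which lay between 119.8 and 150.1 TPM, are not separated, although genes further apart in the order can be.

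**Figure D1:**
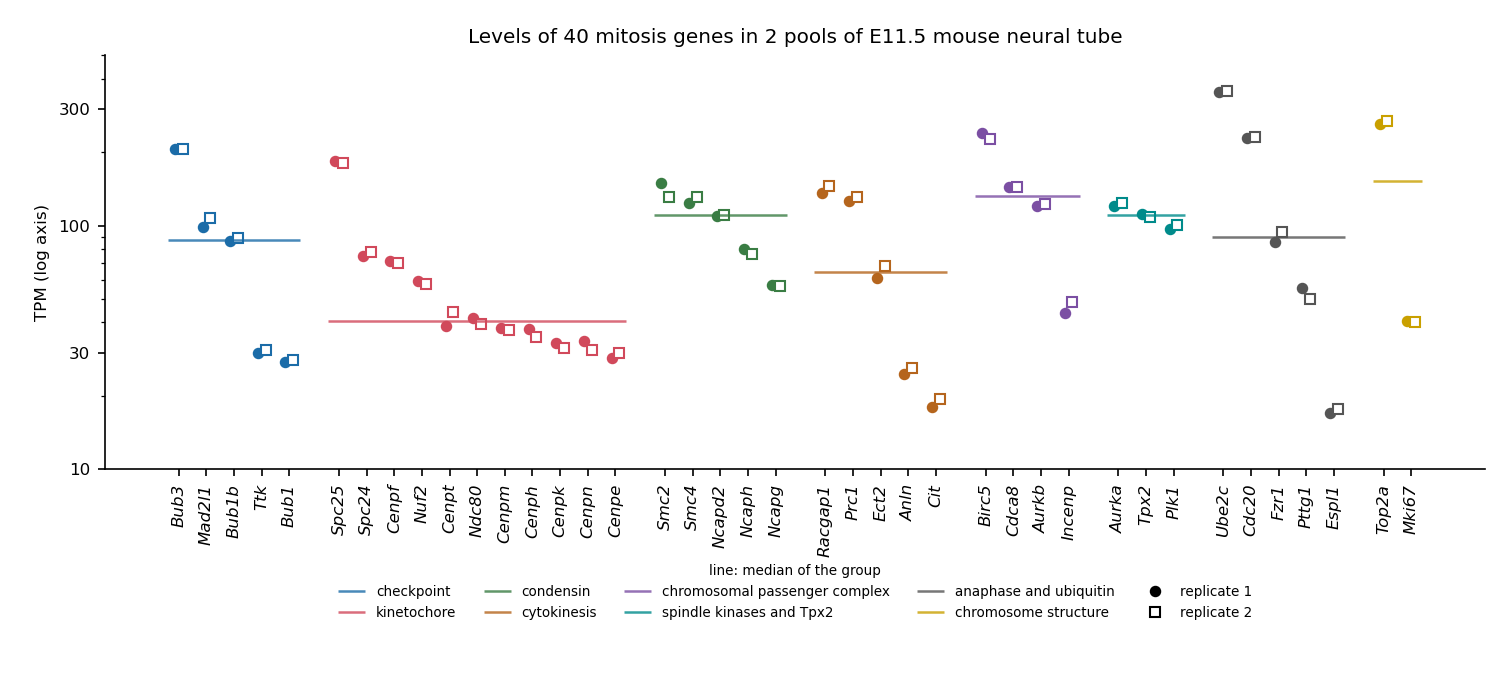
TPM (log axis) of each of the 40 genes in replicate 1 (filled circles) and replicate 2 (open squares), grouped by role, with a line at the median of the members' means in each group. The 2 pools lie close together for every gene, and kinetochore genes other than Spc25 lie below 80 TPM while the condensin genes lie between 56.6 and 150.1 TPM.

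Promoters were read to see which short sequence elements the members share. RefSeq promoter entries on build GRCm38.p6, which span 250 bases before to 50 after a transcription start, were present for 35 of the 40 members, in 40 entries. The cell cycle homology region, or CHR, has the letters TTTGAA; it is a known element of genes expressed late in the cell cycle, bound by the DREAM and MYB-MuvB complexes. The CCAAT box, letters CCAAT, is bound by the factor NF-Y. Each motif was searched on both strands, so its reverse complement (TTCAAA or ATTGG) counts as a match.

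A CHR within 50 bases of the annotated start was found for 20 of the 35 genes and in 55.0% of their promoters, while 3.9% of the 21262 promoters of protein-coding genes and 4.9% of all 32851 promoters held one there. Over the whole 300 bases the CHR stood in 62.5% of the members' promoters, against 16.0% for protein-coding genes. A CCAAT box was present in 77.5% of the members' promoters and in 38.2% of those of protein-coding genes. Both together, a CHR near the start and a CCAAT box anywhere in the window, were found for 18 of 35 genes and in 50% of their promoters, against 1.8%. The variant TTTAAA stood in 7 of 35 genes and in 17.5% of their promoters, against 11.9% for protein-coding genes. The E2F letters TTTCCCGC or TTTGGCGC stood in 3 genes and in 7.5% of the promoters, against 2.0%. A match is a run of letters and not a shown binding site, and the windows depend on the annotated start.

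The promoters of the highest gene, Ube2c, and of a gene from the checkpoint (Bub3), the kinetochore (Spc25), condensin (Smc2) and cytokinesis (Racgap1) show the arrangement, with matches to either strand of the CHR and of the CCAAT box in capitals and the rest in lower case. Each reads 5′ to 3′ along its gene. Ube2c spans chr2:164769679-164769978 on the plus strand, Bub3 chr7:131560120-131560419 on the plus strand (the first of its entries), Spc25 chr2:69206164-69206463 on the minus strand, Smc2 chr4:52438971-52439270 on the plus strand and Racgap1 chr15:99651607-99651906 on the minus strand.
Ube2c: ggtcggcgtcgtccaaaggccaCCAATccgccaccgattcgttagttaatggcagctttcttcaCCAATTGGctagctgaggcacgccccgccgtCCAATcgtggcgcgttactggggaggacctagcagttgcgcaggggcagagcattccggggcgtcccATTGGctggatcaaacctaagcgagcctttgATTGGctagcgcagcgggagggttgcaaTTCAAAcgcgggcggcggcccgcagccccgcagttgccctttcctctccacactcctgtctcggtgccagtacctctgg
Bub3: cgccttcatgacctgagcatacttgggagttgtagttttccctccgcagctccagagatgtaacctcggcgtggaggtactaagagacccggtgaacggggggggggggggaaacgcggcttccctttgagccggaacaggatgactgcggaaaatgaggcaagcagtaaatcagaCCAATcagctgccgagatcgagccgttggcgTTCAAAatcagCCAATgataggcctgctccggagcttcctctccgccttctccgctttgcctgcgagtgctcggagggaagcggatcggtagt
Spc25: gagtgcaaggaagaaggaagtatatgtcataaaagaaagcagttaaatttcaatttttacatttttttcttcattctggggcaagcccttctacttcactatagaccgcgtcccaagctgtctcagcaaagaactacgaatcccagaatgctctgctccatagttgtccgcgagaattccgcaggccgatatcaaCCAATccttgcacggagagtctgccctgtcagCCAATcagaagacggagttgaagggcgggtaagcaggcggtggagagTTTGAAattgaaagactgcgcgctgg
Smc2: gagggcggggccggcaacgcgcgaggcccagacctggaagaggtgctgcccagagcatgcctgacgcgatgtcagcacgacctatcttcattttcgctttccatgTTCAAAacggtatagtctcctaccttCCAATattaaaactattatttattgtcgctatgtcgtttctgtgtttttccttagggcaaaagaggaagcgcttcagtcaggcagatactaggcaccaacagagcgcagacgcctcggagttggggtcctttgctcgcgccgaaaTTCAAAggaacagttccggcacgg
Racgap1: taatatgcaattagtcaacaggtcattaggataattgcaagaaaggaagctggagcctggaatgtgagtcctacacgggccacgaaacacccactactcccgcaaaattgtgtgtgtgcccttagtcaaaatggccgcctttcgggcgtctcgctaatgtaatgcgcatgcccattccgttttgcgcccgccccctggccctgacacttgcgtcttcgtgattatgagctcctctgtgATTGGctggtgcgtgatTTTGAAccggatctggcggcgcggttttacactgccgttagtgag

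In Ube2c a single CHR on the reverse strand follows 6 CCAAT boxes, a pair of which overlap as CCAATTGG. Bub3 and Racgap1 carry the CHR beside a CCAAT box. The CHR lies before the start in Bub3 and after it in Racgap1 and Spc25, and Smc2 carries 1 copy on each side of the start. Cenpm, an inner kinetochore gene, is shown as one without the CHR; its promoter, chr15:82244287-82244586 on the minus strand, holds 2 CCAAT boxes.
Cenpm: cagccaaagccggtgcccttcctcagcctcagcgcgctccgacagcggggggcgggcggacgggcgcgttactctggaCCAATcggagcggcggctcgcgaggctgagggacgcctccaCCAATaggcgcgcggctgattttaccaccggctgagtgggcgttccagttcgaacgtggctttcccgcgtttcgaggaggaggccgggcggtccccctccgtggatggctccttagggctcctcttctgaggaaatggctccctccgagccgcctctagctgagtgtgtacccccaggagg

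By role, the CHR stood near the start in 4 of 5 cytokinesis genes, 3 of 5 checkpoint genes, 2 of 4 condensin genes and 4 of 10 kinetochore genes with an entry. Of the inner kinetochore genes, Cenpn had one there and Cenph, Cenpk, Cenpm and Cenpt had none in the whole window, which says only that these letters are absent from it. Set beside the levels, the 20 members with a CHR near the start had a median of 110.2 TPM and ranged between 17.3 and 354 TPM, and the 15 without one had a median of 41.5 TPM and ranged between 18.8 and 234 TPM. The ranges overlap almost wholly, and this is a description with no test. Of the 15, Mki67 and Ncapd2 held a CHR further upstream in the window. The 5 members with no entry had a median of 110.1 TPM and ranged between 46.2 and 127 TPM. Among other lists the nearest were further genes of mitosis: the CHR stood near the start in 7 of 21 further spindle genes, 5 of 16 further cytokinesis genes, 7 of 23 further kinetochore genes, 3 of 11 further checkpoint genes and 2 of 7 cohesin genes with an entry. It stood there in 3 of 11 cyclin and CDK genes, 2 of 20 DNA replication genes, 1 of 15 genes of the anaphase-promoting complex list and 0 of 7 postmitotic neuron markers with an entry.

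**Figure D2:**
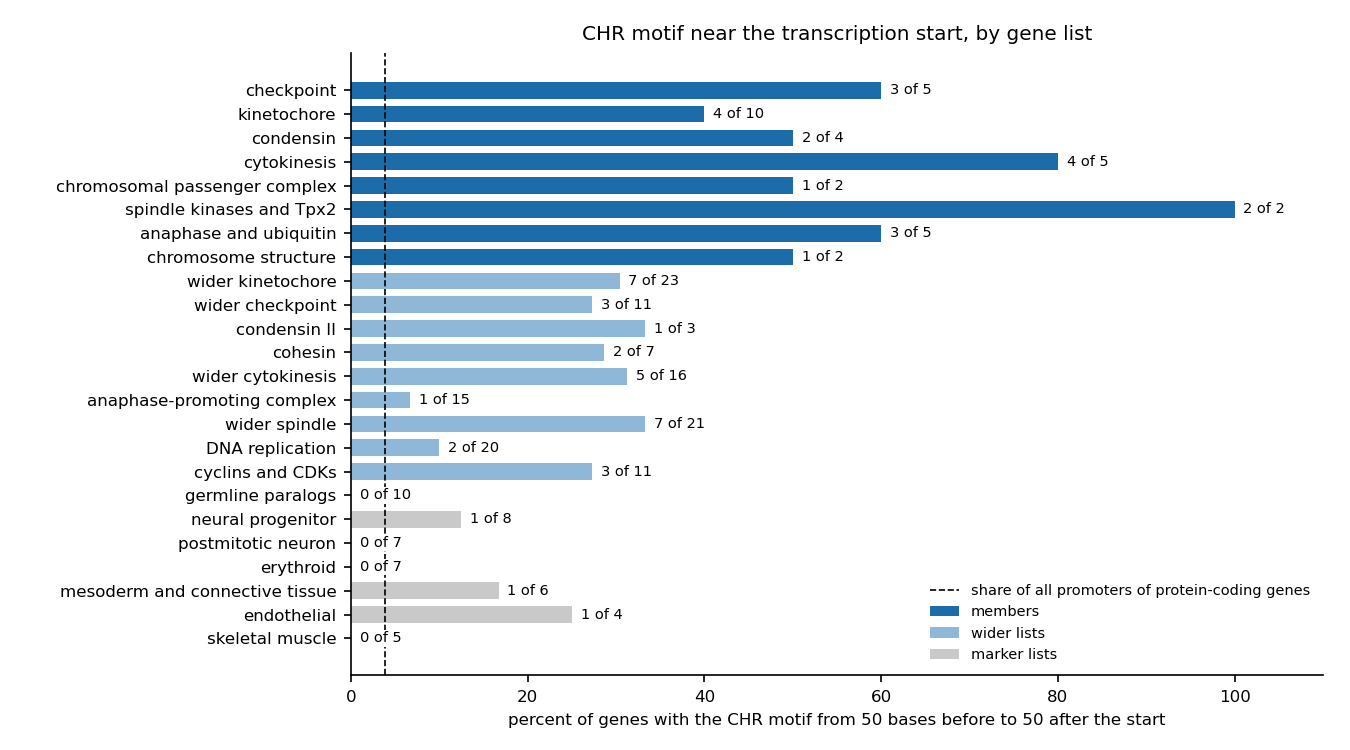
Percent of genes in each list whose RefSeq promoter holds TTTGAA on either strand within 50 bases of the start (bars; the counts stand at the bar ends) beside the 3.9% of all promoters of protein-coding genes (dashed line). All 8 member groups lie at 40.0% or above, on 2 to 10 genes each, the further kinetochore, checkpoint, cytokinesis and spindle lists lie between 27.3% and 33.3%, and the DNA replication list lies at 10.0%.

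The checkpoint genes fell into a higher and a lower set. Bub3, a WD-repeat protein that brings the kinases of the checkpoint to the kinetochore, stood at 206 TPM in replicate 1 and 207 TPM in replicate 2. Mad2l1, which encodes the protein that binds and blocks Cdc20, had 98.5 and 107 TPM. Bub1b, which encodes the other Cdc20-binding subunit of the inhibitor complex, had 86.1 and 88.5 TPM. The kinase genes Ttk and Bub1 were lower: Ttk, which starts checkpoint signalling, had 30.1 and 30.8 TPM, and Bub1 had 27.6 and 28.2 TPM. Bub3 and Bub1 differed 7.4-fold in their means, and Ttk and Bub1 both lay below the other 3 genes in each library.

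Kinetochore genes had the lowest group median of the 4 main roles, 38.7 TPM in replicate 1 and 39.6 TPM in replicate 2. The NDC80 complex, the rod of 4 subunits that grips the microtubule, stood apart by 1 subunit. Spc25 had 185 TPM in replicate 1 and 180.45 TPM in replicate 2. Its partner Spc24, with which it forms the end of the rod that faces the chromosome, had 74.9 and 78.2 TPM. Of the microtubule-facing pair, Nuf2 had 59.2 and 57.7 TPM and Ndc80 had 41.6 and 39.6 TPM. The ratio of the highest to the lowest subunit was 4.5 ± 0.08 (SD, n = 2). It was 4.30 when only transcripts annotated as protein-coding were counted and 4.18 on counts per kilobase of the longest transcript, where Nuf2 and not Ndc80 was lowest. The longest Nuf2 transcript, of 3888 bases, held 7.08 and 9.08 counts, whereas its leading transcript has 2068 bases. Spc25 stayed highest on all 3 scales.

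Genes of the inner kinetochore, which sits on the centromeric chromatin, lay within a narrow band. Cenpt, whose product links the centromere to NDC80, had 38.7 and 44.2 TPM, Cenpm had 37.9 and 37.4 TPM, Cenph 37.6 and 34.9 TPM, Cenpk 33.0 and 31.4 TPM, and Cenpn 33.5 and 30.7 TPM. The ratio of highest to lowest was 1.31 ± 0.19 (SD, n = 2), and the lowest was Cenpk in replicate 1 and Cenpn in replicate 2, so these 5 genes are barely separated. Of the large proteins of the outer corona, Cenpf had 71.2 and 70.2 TPM, above that band. On counts per kilobase of the longest transcript it had 518 and 536, within the range of the inner genes, and its full-length transcript Cenpf-204 held 3929 of its 5768 counts in replicate 1 but 28.7% of its TPM. The kinesin Cenpe, the lowest kinetochore member, had 28.5 and 29.9 TPM.

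The chromosomal passenger complex corrects faulty microtubule attachments and consists of the kinase Aurkb, the scaffold Incenp, and the targeting subunits Birc5 (survivin) and Cdca8 (borealin). Birc5 had 240.03 TPM in replicate 1 and 227 TPM in replicate 2. Cdca8 had 144 TPM in both, Aurkb had 119.8 and 123 TPM, and Incenp had 43.9 and 48.5 TPM. The ratio of Birc5 to Incenp was 5.08 ± 0.55 (SD, n = 2). By protein-coding transcripts Birc5 stayed highest and the ratio was also 5.08. Most Birc5 TPM, 98.4% in each library, lay on a transcript of 947 bases, whereas its longest annotated transcript has 3334 bases. On counts per kilobase of the longest transcript, Aurkb was highest, Incenp remained lowest and the ratio was 2.29.

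The spindle kinases and Tpx2 lay close to each other. Aurka, a kinase of spindle poles, had 119.8 and 124 TPM, its activator Tpx2 had 111 and 109 TPM, and Plk1, a kinase with roles from mitotic entry to cytokinesis, had 96.7 and 100.2 TPM. The highest and lowest means of the 3 differed 1.24-fold.

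Condensin I compacts mitotic chromosomes with a pair of ATPase subunits, Smc2 and Smc4, and 3 regulatory subunits. By TPM the ATPase genes led: Smc2 had 150.05 TPM in replicate 1 and 131 TPM in replicate 2, and Smc4 had 123 and 132 TPM. Ncapd2 had 109.8 and 110.2 TPM, Ncaph had 80.4 and 76.6 TPM, and Ncapg had 56.8 and 56.6 TPM. The ratio of the highest to the lowest subunit was 2.48 ± 0.23 (SD, n = 2). Counting protein-coding transcripts alone it was 1.49, and on counts per kilobase of the longest transcript it was 1.5. Smc2 was then among the lowest: 50.7 and 56.4 TPM by coding transcripts. Smc4 had 69.0 and 74.5 TPM by coding transcripts against 77.7 and 73.4 TPM for Ncaph, so it was highest in replicate 2. The lead of both ATPase genes together was therefore present on 1 of 3 scales.

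**Figure D3:**
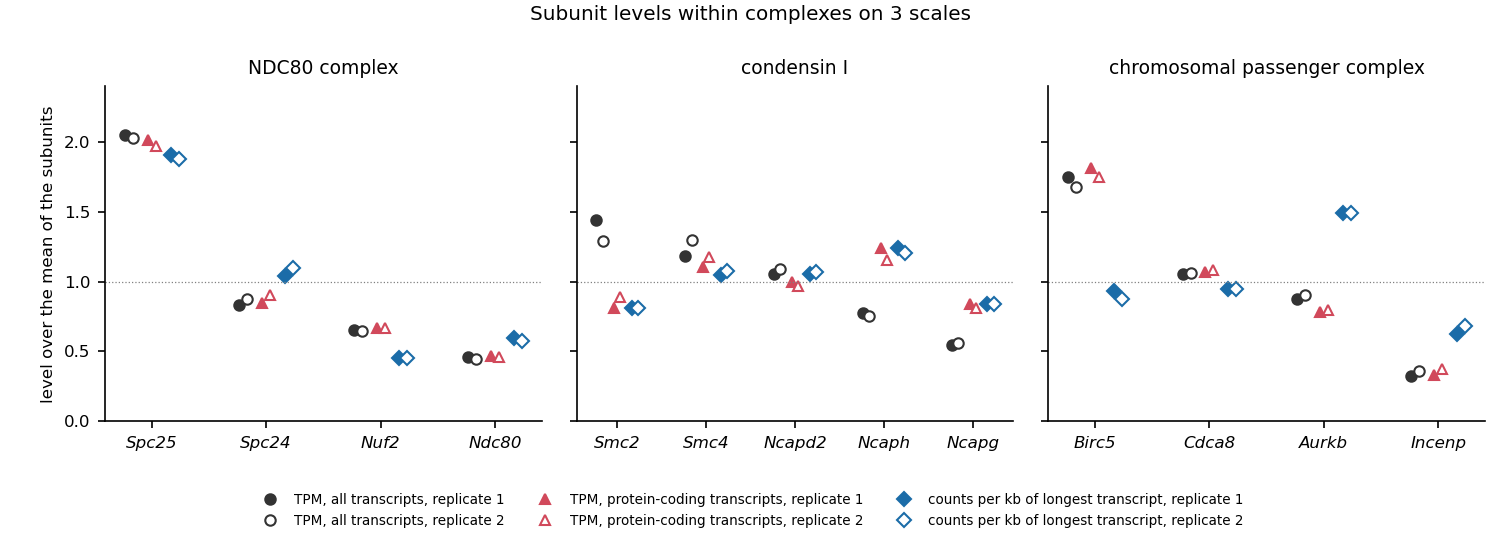
Level of each subunit divided by the mean of its complex (vertical axis, no unit) on 3 scales: TPM of all transcripts (circles), TPM of protein-coding transcripts (triangles) and counts per kilobase of the longest transcript (diamonds), with replicate 1 filled and replicate 2 open. Spc25 is highest in NDC80 on all 3 scales, while Smc2 lies above 1 by TPM and below 1 on both other scales, and Birc5 lies below 1 on counts per kilobase alone.

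The transcripts of Smc2 show where its TPM lay. Its leading transcript by TPM was Smc2-203, of 643 bases and typed as a processed transcript with no coding sequence, which held 49.4% of the TPM of the gene in replicate 1 and 44.9% in replicate 2. It held 702 of 4645 counts in replicate 1 and 574 of 4714 counts in replicate 2. The full-length coding transcript Smc2-201, of 5404 bases, held 3255 and 3365 counts but 23.5% and 27% of the TPM. A short transcript thus carried more TPM than a long one that held several times its counts.

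The same pattern of annotation affected other members. Smc4 was split between Smc4-206, a coding transcript of 1163 bases with 52.9% and 54.6% of its TPM, and Smc4-207, of 4057 bases and typed as a target of nonsense-mediated decay, with 38.5% and 35.5%. Smc4-207 held 3271 and 3320 of the 4800 and 4979 counts of the gene, so a restriction to coding transcripts drops most Smc4 reads. In Ncapd2 the full-length Ncapd2-201 held 53.6% and 52.6% of the TPM, and most of the rest fell on short transcripts typed as retained introns. In Top2a the full-length Top2a-201 held 66.1% and 64.2%, with short processed transcripts taking the remainder. These 4 genes were the members whose level moved over 1.5-fold when only coding transcripts were counted. In all, 7 of 40 members had under 80% of their TPM in coding transcripts, 15 had all of it there, and the median was 97.4%.

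**Figure D4:**
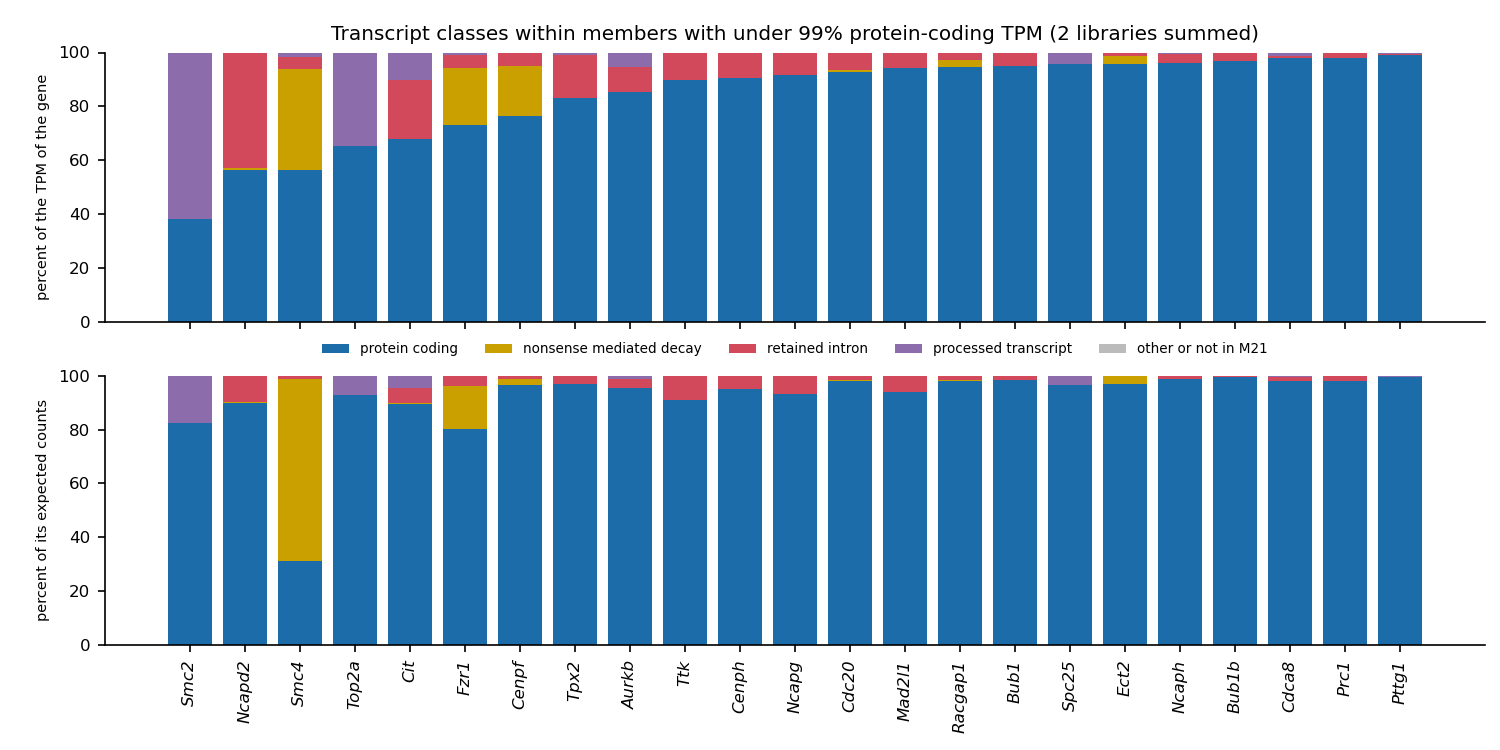
Share of each GENCODE transcript class in the TPM (upper bars, percent) and in the expected counts (lower bars, percent) of the members with under 99% coding TPM, both libraries summed. For Smc2, Ncapd2 and Top2a the non-coding share is far larger by TPM than by counts, and Smc4 shows the reverse, with more of its counts than of its TPM on transcripts typed as nonsense-mediated decay.

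Of the 40 members, 11 had a single annotated transcript. Of the other 29, 28 were led by the same transcript in both, and Smc2 was the only member led by a non-coding one. The exception was Pttg1, which encodes securin, the inhibitor of separase. In replicate 1, 54.3% of its TPM fell on Pttg1-205 and 41.5% on Pttg1-202, whereas in replicate 2 Pttg1-202 held 56.6%, Pttg1-203 held 38.4%, and Pttg1-205 held 0. Pttg1-205 and Pttg1-203, of 696 and 700 bases, exchanged places between the libraries, and Pttg1 was also the member with the fewest counts, 613 and 586.

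Among genes of anaphase and mitotic exit, Cdc20, the activator of the anaphase-promoting complex that the checkpoint blocks, had 228 TPM in replicate 1 and 230.2 TPM in replicate 2, second to Ube2c in this group. Fzr1, the activator that takes over in late mitosis, had 85.7 and 93.8 TPM. Pttg1 had 55.4 and 49.8 TPM, and its target Espl1 was lowest as given above. Between Ube2c and Espl1 this group spanned the whole range of the 40 genes.

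The cytokinesis genes also fell into separate levels. Racgap1, the GTPase-activating subunit of centralspindlin at the spindle midzone, had 136 and 146 TPM. Prc1, which bundles the midzone microtubules, had 126 and 131 TPM. Ect2, the exchange factor that activates RhoA, had 60.75 and 68.0 TPM. Anln, the scaffold anillin of the contractile ring, had 24.5 and 26.1 TPM, and Cit, the citron kinase of the midbody, had 18.1 and 19.5 TPM. All 5 had a lower TPM in replicate 1, as did 24 of the 40 members, whereas by scaled counts 3 of the 5 were lower there. The median log2 ratio of TPM, replicate 1 over replicate 2, was −0.04 for all genes and −0.02 for the members. The means of Racgap1 and Cit differed 7.50-fold. Of the chromosome structure genes, Top2a, the topoisomerase that untangles sister chromatids, had 262 and 268 TPM, and Mki67, whose product coats mitotic chromosomes and marks cycling cells, had 40.5 and 40.2 TPM. By counts Mki67 was not low, with 7025 and 7195 reads over a transcript of 10075 bases.

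The 4 main roles were compared by their median log2(TPM + 1) in each library. Condensin genes had group medians of 109.8 and 110.2 TPM, checkpoint genes 86.1 and 88.5 TPM, cytokinesis genes 60.75 and 68.0 TPM and kinetochore genes 38.7 and 39.6 TPM. Condensin exceeded the kinetochore by 1.47 ± 0.02, checkpoint exceeded it by 1.14 ± 0.01 and cytokinesis by 0.70 ± 0.09 on the log2 scale (SD, n = 2 each). Each of these was larger than the spread between pools, and each kept its sign on the 2 other scales, where they were 0.65 and 1.00 for condensin, 1.09 and 1.36 for checkpoint, and 0.64 and 0.92 for cytokinesis (protein-coding transcripts and counts per kilobase). Taking the mean over each group in place of the median left 0.97, 0.49 and 0.19. The spread between pools does not cover the spread among genes of a group, and the groups overlapped. Mean levels ran between 27.9 and 206 TPM for checkpoint genes and between 29.2 and 183 TPM for kinetochore genes. They ran between 56.7 and 141 TPM for condensin genes and between 18.8 and 141 TPM for cytokinesis genes.

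Differences among the other roles were less stable. Condensin exceeded checkpoint by 0.33 ± 0.02 (SD, n = 2), but the difference was −0.45 by protein-coding transcripts and −0.35 by counts per kilobase of the longest transcript. Condensin exceeded cytokinesis by 0.77 ± 0.11, and by 0.0045 and 0.086 on those scales. The first of these changed sign between pools, with 0.09 in replicate 1 and −0.08 in replicate 2, and the second was 0.14 and 0.03. Cytokinesis lay below checkpoint by all 3 measures, at −0.44 ± 0.08, −0.45 and −0.44. Members of a group are different genes and not replicates, so no test was made over them.

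Some member reads may belong to neighbours, because no source used here says whether the libraries keep strand. Exons of 4 members overlapped exons of a gene on the opposite strand by at least 5% of their length. For Ube2c, 22.8% of the exonic length overlapped Tnnc2, a troponin gene of skeletal muscle, which was assigned 451 and 369 counts against 5341 and 5552 for Ube2c. Ncapg overlapped Lcorl by 13.4%, Prc1 overlapped Rccd1 by 11.1% and Plk1 overlapped Gm44985 by 7.09%. Of the 40 members, 28 had no stretch of 100 bases in common with any other gene; the highest share of such stretches was 10.2%, for Ncapg, and among members outside these 4 it was 2.5%, for Cenpk. In this respect the levels of those 4 genes are less certain than the rest. The levels that moved over 1.5-fold by coding transcripts were those of other members, Smc2, Smc4, Ncapd2 and Top2a.

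The wider machinery had lower medians, apart from the anaphase-promoting complex. All 25 further kinetochore genes reached 10 TPM in both libraries, with a median of 34.2 TPM, between Cenpo with 12.7 and 12.8 TPM and Zwint with 327 and 337 TPM. All 12 further checkpoint genes did so too, with a median of 30.7 TPM, between Kntc1 with 13.4 and 11.9 TPM and Tpr with 103 and 112 TPM. The 16 genes of the anaphase-promoting complex list had a median of 104.6 TPM, between Anapc10 with 14 and 14.9 TPM and Ube2s, the ubiquitin chain-extending enzyme, with 364 and 341 TPM. Of 21 further cytokinesis genes, 19 reached 10 TPM, between Kif14 with 5.03 and 6.37 TPM and Sept2 with 242 and 238 TPM, and their median was 33.6 TPM. Of 26 further spindle genes, 24 did, between Kif18b with 5.10 and 4.01 TPM and Tacc3 with 204 and 190.32 TPM, with a median of 45.2 TPM.

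Related chromosome and cell cycle lists frame these levels. Of condensin II, Ncaph2 had 119.85 and 118 TPM, Ncapd3 had 21.2 and 25.4 TPM, and Ncapg2 had 17.4 and 16.1 TPM. By TPM the condensin I regulatory genes Ncapd2 and Ncapg thus stood above their condensin II counterparts, and Ncaph below its own. The order held by coding transcripts, but there Ncaph, with 77.7 and 73.4 TPM, lay close to Ncaph2, with 81.4 and 78.3 TPM. Cohesin genes, which hold sister chromatids together, had a median of 38.3 TPM over 12 genes, between Esco1 with 18.1 and 19.0 TPM and Smc1a with 89.7 and 97.4 TPM. The 25 DNA replication genes had a median of 81.8 TPM, between Orc1 with 11.8 and 12.9 TPM and Pcna with 259.7 and 249 TPM, and the 17 cyclin and CDK genes had a median of 87.7 TPM, between Cdk6 with 6.48 and 7.20 TPM and Cdk4 with 2074 and 2060 TPM. The mitosis members, at 77.5 TPM, lay near both.

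Germline genes that act in meiosis, paralogs of the machinery apart from Sycp1 and Sycp3, mostly lay near 0. Of 10 such genes, only Rec8, a meiotic cohesin subunit, with 9.45 and 8.97 TPM, and Stag3, with 2.46 and 2.12 TPM, reached 1 TPM in both libraries, and Ccna1 had 1.14 and 0.91 TPM. Ccnb3, Sgo2b and Sycp1 had 0 counts in both, where 3 counts would have given at most 0.0517 TPM. Aurkc, the meiotic relative of Aurka and Aurkb, had 0.47 TPM in replicate 1 and 0 in replicate 2, where 3 counts would give 0.197 TPM. Smc1b had 0.09 and 0.01 TPM, Rad21l had 0.15 and 0.14 TPM, and Sycp3 had 0.12 and 0 TPM, where 3 counts would give 0.171 TPM.

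The pools were then compared gene by gene on scaled counts, as the log2 ratio of replicate 1 over replicate 2. Of the 40 members, 0 lay past 0.32 in either direction, against 21.4% of all 17219 genes with 10 counts in at least 1 library. Most of that share lies at low counts: among the 8709 genes with a mean of 500 counts or more it was 1.76% (0.873% higher and 0.884% lower in replicate 1), so the members' count is close to that of other well-measured genes. The median absolute ratio was 0.05 for the members and 0.07 for those genes. The median signed ratio of the members was 0.03, and 24 lay above 0 and 16 below. Of 14773 protein-coding genes with a ratio, 7358 lay above 0 and 7415 below.

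The largest ratios by size were those of Cit, Cenpn and Cenph. Cit had 2095 counts in replicate 1 and 1916 in replicate 2, a log2 ratio of 0.22, while its TPM went the other way, with 18.1 TPM in replicate 1 and 19.5 TPM in replicate 2. Its transcript Cit-210, of 571 bases, held 0 counts in replicate 1 and 26.4 counts in replicate 2, which was worth 0 and 3.12 TPM. Cenpn had 974 and 920 counts, a ratio of 0.17, and Cenph had 720 and 686 counts, a ratio of 0.16. The lowest ratio was that of Cenpt, −0.15, with 1123 and 1325 counts. All 4 lay inside the threshold. For Smc2 the counts gave 0.07 and the TPM 0.20, so its spread of TPM between pools lay mostly in how reads were divided among transcripts. All 5 condensin genes and 8 of 11 kinetochore genes had a ratio above 0, against 7358 of 14773 protein-coding genes with a ratio. Of the checkpoint genes 4 of 5 lay below 0, but Ttk, Bub1 and Bub1b did so by little, at −0.007, −0.008 and −0.013.

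Some other tissue lists differed more between the pools. All 12 markers of postmitotic neurons were lower in replicate 1, with a median ratio of −0.12. All 10 mesoderm and connective tissue markers were higher in replicate 1, with a median of 0.22, as were all 6 skeletal muscle markers, with a median of 0.32, 3 of them past the threshold. Neural progenitor markers had a median of −0.04, with 5 higher and 7 lower, and DNA replication genes had a median of −0.04. Erythroid markers had a median of 0.01, with 5 higher and 5 lower, and endothelial markers 0.02, with 4 higher and 4 lower. The part of tissue makeup in the members' ratios was not tested.

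**Figure D5:**
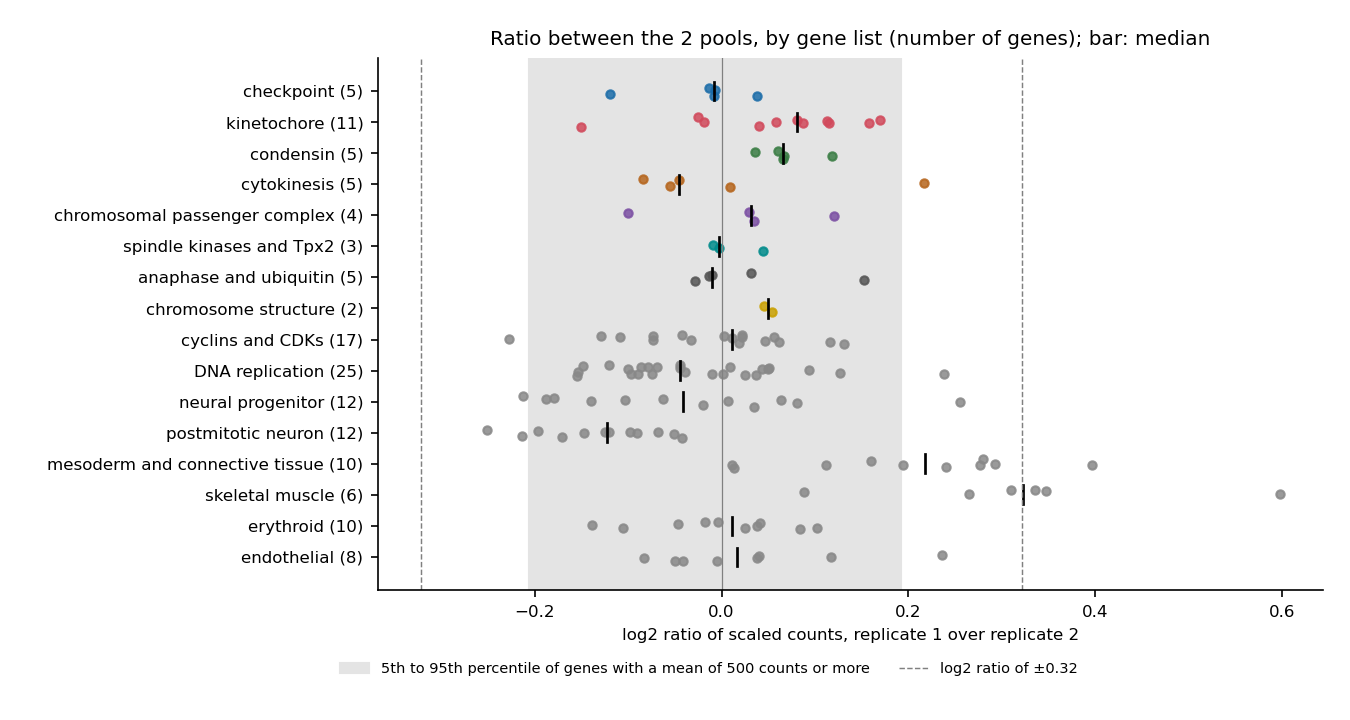
Log2 ratio of scaled counts, replicate 1 over replicate 2, for each gene (points) of the 8 member groups and of 8 other lists, with a black bar at each median; grey shading covers the 5th to 95th percentile of genes with a mean of 500 counts or more, and dashed lines stand at 0.32 on either side. The 40 members lie between −0.15 and 0.22, inside the dashed lines, while the skeletal muscle markers reach 0.60.

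The sign of these small ratios depends on the scaling. Scaling to the spike-ins in place of the gene counts moved the median of all genes to −0.20 and that of the members to −0.16, with 1 member above 0 and 39 below, and Cenpt alone then lay past 0.32. The ratio of TPM gave 16 above 0 and 24 below, with a median of −0.02, while the median of all genes was −0.04. Relative to all genes, the members' median stood 0.03 above under gene-count scaling and 0.03 above under spike-in scaling. A change of scaling shifts every gene by nearly the same amount, so these values could hardly differ. The distance was 0.0167 for the ratio of TPM and 0.0245 without the low-count filter.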

How the data were processed

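Total RNA-seq of 2 neural tube pools was analysed from the values the authors deposited. Ambion mirVana extraction, a size range above 200 bases, 10 ng of starting RNA, spike-ins and a SmartSeq general protocol are named per the labels' protocols. Expected counts, which are estimated reads per gene and per transcript, and TPM values were deposited by the authors for mm10 with GENCODE M4 identifiers, together with transcript shares per gene as a percent. The aligner and quantifier were not given in the sources used here, nor was strandedness. The deposited interval bounds were not used for any result.

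Names, biotypes and positions were taken by unversioned identifier from GENCODE M21 (GRCm38, the build of mm10), which matched 42462 of 43346. The gene lists exclude 97 spike-ins and 26248 entries that carry a number for a name. Expected counts were rounded, and edgeR 4.0.16 (R 4.3.3) gave TMM factors, both 1.00, and, with a prior count of 2, log2 ratios for genes with 10 counts in at least 1 library; these steps were tested on simulated data. DESeq2 1.42.0 gave alternative size factors. Python 3.11.15 with pandas 2.3.3 did the rest. A chi-square of 6.21 per gene over 12352 genes showed that the libraries differ by more than counting noise. No value came from a test between groups, as there is 1 group, and counting intervals would cover counting error only, since no molecular identifiers separate reads from molecules.

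The rule for the 40 members uses gene names only, but the members, the 10 wider lists (167 genes) and the 6 marker lists were chosen with earlier results of these data known. The genes named are the highest and lowest of each group and wider list, and all subunits of the complexes compared. Single markers of cell types, the 3 largest replicate ratios by size and genes under 1 TPM are also named. The transcript and promoter examples were chosen after their values were seen. Alternatives covered the posterior mean estimates, TPM rescaled without spike-ins, the pseudocount, the mean over a group, scaling, prior count and filter; coding transcripts only, counts per kilobase, the TPM ratio and the 500-count minimum were added after seeing the data.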

Additional observations from a re-analysis of the deposited data

How the results depend on the processing

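The counts of members at 1 and at 10 TPM, 40 each, and the 28 members with an unchanged leading transcript did not move under any alternative run for them. The members' median of 77.5 TPM was 75.7 by posterior means, 88.6 rescaled without spike-ins and numbered entries and 61.7 by protein-coding transcripts, and 77.4 to 77.7 with either library left out. Of the 40 single levels, 19 moved by more than 1 SD under posterior means, 19 under coding transcripts and 40 under rescaling. The SD of 2 close pools is small, and the sizes of these moves differed. Levels lay between 0.97 and 1.09 of the main value by posterior means and between 0.38 and 1.00 by coding transcripts. Rescaling multiplied every member by 1.14.

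Of the group differences in log2 units, checkpoint minus kinetochore (1.14) was 1.16 by posterior means and with a pseudocount of 0.1, 0.49 by group means, 1.09 by coding transcripts and 1.36 by counts per kilobase. Condensin minus kinetochore (1.47) was 1.5, 1.49, 0.97, 0.65 and 1.00 in the same order. Cytokinesis minus kinetochore (0.70) was 0.19 by group means and 0.92 by counts per kilobase, and cytokinesis minus checkpoint (−0.44) was −0.29 by group means. Condensin minus checkpoint (0.33) was 0.48 by group means, −0.45 by coding transcripts and −0.35 by counts per kilobase, and condensin minus cytokinesis (0.77) was 0.0045 and 0.086 on those 2 scales. The first scale drops transcripts not typed as coding and the second replaces the transcript lengths behind TPM. With either library left out the 6 differences were 1.13 to 1.14, 1.45 to 1.48, 0.64 to 0.77, 0.31 to 0.35, 0.69 to 0.84 and −0.50 to −0.38, in the order checkpoint, condensin and cytokinesis minus kinetochore, condensin minus checkpoint, condensin minus cytokinesis and cytokinesis minus checkpoint.

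The members' median ratio of 0.03 was −0.16 under spike-in scaling, with 1 member past 0.32 on the log2 scale; the other scalings, prior count and filters left 0 past it. No paired analysis was possible because there is 1 group. With 2 libraries, only their range describes the error. Pttg1, whose leading transcript differed between libraries, was the member with the fewest counts, and the cause was not tested.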
